A study of Mus musculus with 42 samples.

Results

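Mature oligodendrocytes, the cells that wrap axons in myelin in the brain and spinal cord, do not form a single uniform population. The 10 genes described here, Klk6, Hopx, S100b, Anxa5, Ptgds, Apod, Il33, Car2, Grm3 and Anln, are markers of mature oligodendrocyte states that differ along the neuraxis, and were taken by symbol from the 20661 genes of each deposited table. All 10 were present in all 3 tables and passed the filter on low values in each. The study holds 42 mouse libraries. In 24 of them, ribosome-bound RNA of mature oligodendrocytes was collected by immunoprecipitation (TRAP, translating ribosome affinity purification) from frontal cortex (7 libraries), subcortical white matter (6), cerebellum (6) and spinal cord (5). The driver of the ribosome tag, the strain and the ages of these mice are not given in the sources used here. The next 6 libraries are bulk RNA of frontal cortex, 3 of genotype rTg4510- and 3 of genotype rTg4510+, whose titles carry the words control and mutant and the mark 8mo. rTg4510 is a tauopathy line in which mutant human tau is made in forebrain neurons under a tetracycline-controlled system, so oligodendrocytes are not the cells that the transgene is driven in. The last 12 are bulk RNA of prefrontal cortex from miR-142-null mice (4), miR-142-heterozygotes (4) and mice labelled miR-142 with WT in the title (4). Nothing in the labels ties replicates to separate animals, so a p-value here reflects differences among libraries, which may be technical.

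Oligodendrocytes mature through precursors and newly formed cells into states that all make myelin proteins but differ in secreted and signalling molecules. One such state, often named after the secreted protease Klk6, also carries Hopx and Anxa5 and is known from white matter tracts, above all in the spinal cord. Another carries Ptgds, Apod, Il33, Car2 and Grm3 and is known from grey matter as well as white matter. S100b and Anln are markers of maturing and mature oligodendrocytes and were set in neither group here.

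The level of a marker in these libraries was read as RPKM, reads scaled by gene length and by library depth, which lets genes of different length be compared. Recovered depth was 3.26 to 12.99 M reads (M for mega) in spinal cord, 5.80 to 24.7 M in frontal cortex, 7.36 to 16.5 M in white matter and 12.02 to 36.8 M in cerebellum. It was 13.9 to 27.02 M in the rTg4510 table and 22.8 to 31.8 M in the miR-142 table. Mbp, which encodes myelin basic protein, averaged from 1933 RPKM in frontal cortex to 16216 RPKM in spinal cord, so it was present in every region. The bulk cortex libraries held Mbp too, so its presence does not measure how cleanly the labelled cells were captured. Neuronal and astrocyte RNA was present too: 10 pan-neuronal genes summed to 4218 to 12700 RPKM over the 24 libraries and 12 astrocyte genes to 632 to 9588 RPKM. Spinal cord replicates 4 and 7 stood apart, with a mean correlation to the other libraries of their region of 0.797 and 0.796, against 0.836 to 0.850 for the other 3 spinal cord libraries. Some results, for Il33, Grm3 and Anxa5, are also given without them, and the other spinal cord results include them unless stated. In bulk samples, and in immunoprecipitates of a whole region, fewer cells of a type and less RNA per cell cannot be told apart.

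The promoters of 5 members are shown as examples of the regional patterns. Klk6, S100b and Apod were highest in spinal cord and Grm3 was lowest there. Ptgds was highest in cerebellum, with the smallest range of regional means among the members. Each window runs from 250 bases before to 50 bases after the start site, 5′ to 3′ on the gene's strand, from RefSeq on GRCm38.p6. Capitals mark ACAAAG on either strand, a core of SOX protein sites (Sox10 is the lineage's main SOX factor), and CANNTG, the E-box read by Olig2 and other basic helix-loop-helix proteins.
Klk6 (chr7:43824294-43824593, plus strand): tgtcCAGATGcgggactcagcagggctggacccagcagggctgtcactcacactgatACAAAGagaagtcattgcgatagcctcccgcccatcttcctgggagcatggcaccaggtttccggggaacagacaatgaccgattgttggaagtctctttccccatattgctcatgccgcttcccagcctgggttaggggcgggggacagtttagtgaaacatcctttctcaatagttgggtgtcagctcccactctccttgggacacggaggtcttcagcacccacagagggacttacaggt
S100b (chr10:76253586-76253885, plus strand): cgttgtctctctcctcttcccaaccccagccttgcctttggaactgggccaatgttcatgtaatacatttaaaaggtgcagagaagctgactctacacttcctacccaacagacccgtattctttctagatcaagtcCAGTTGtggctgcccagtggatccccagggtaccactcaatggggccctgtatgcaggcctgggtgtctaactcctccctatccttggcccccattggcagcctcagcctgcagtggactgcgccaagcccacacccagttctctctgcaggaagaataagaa
Apod (chr16:31314759-31315058, minus strand): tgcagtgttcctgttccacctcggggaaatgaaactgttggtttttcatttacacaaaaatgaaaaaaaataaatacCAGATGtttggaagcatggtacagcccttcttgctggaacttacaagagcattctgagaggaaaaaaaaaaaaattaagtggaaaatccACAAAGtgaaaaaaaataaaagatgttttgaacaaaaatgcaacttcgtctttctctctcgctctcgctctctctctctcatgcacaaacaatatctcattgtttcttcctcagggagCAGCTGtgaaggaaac
Ptgds (chr2:25469700-25469999, minus strand): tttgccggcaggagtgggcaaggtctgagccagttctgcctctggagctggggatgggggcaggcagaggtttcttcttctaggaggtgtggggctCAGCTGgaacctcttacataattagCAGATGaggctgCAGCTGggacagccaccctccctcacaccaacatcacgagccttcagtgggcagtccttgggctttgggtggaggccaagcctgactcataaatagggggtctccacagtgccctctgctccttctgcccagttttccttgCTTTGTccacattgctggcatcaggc
Grm3 (chr5:9725303-9725602, minus strand): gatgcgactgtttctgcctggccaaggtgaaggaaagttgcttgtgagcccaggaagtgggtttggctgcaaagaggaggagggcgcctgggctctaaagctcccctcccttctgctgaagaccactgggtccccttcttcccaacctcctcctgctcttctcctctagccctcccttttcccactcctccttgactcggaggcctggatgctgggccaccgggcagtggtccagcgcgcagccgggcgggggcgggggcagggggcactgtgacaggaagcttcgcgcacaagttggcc

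Promoters were matched for 9 of the 10 members, 12 windows in all, and Car2 was not matched. ACAAAG was found in 1 Klk6 window, the one shown (base -193 from the start), in the Apod window (-84) and, on the opposite strand, in the Ptgds window (24). The other Klk6 window, which is not shown, did not hold it. Over all 32851 promoter windows of this length, 18.7% held it. An E-box was found in the windows of 8 matched members and in 72.3% of all windows. The Ptgds window held 3, at -154, -129 and -117, and the Apod window 2, at -173 and 34. TAATTA and TATAAA were also searched on both strands and occurred in 5.29% and 13.6% of all windows. The Grm3 window, 63.7% G and C, held none of the 4 motifs, while the Apod window was the least rich in G and C of those shown, at 37.3%. In the windows shown, no match of one motif overlapped a match of another. A match is a string of letters and was not tested for binding.

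The microRNA removed in the third experiment reads as follows, with its seed (bases 2 to 8) in capitals.
mmu-miR-142a-3p (chr11:87756903-87756925, plus strand, GRCm38.p6): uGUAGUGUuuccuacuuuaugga
The complement of this seed, ACACTAC, was absent from the longest annotated 3′ UTR of all 10 members. Those UTRs are 162 to 1677 bases long, and 1258 of 20987 genes (5.99%), whose median UTR is 954 bases, carried it. The letters searched for were a full 7-base match only.

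The first question was how each marker is distributed over the 4 regions. The mean levels showed 3 arrangements. Klk6, Hopx, Anxa5, S100b and Apod were highest in spinal cord, followed by cerebellum, white matter and frontal cortex in that order. Ptgds, Il33, Car2 and Anln were highest in cerebellum and lowest in frontal cortex. Grm3 was highest in white matter and lowest in spinal cord. The highest regional mean exceeded the lowest by 118-fold for Klk6, 37.7-fold for S100b, 18.8-fold for Hopx and 18.7-fold for Apod. For the others it was 7.77-fold (Anln), 5.46-fold (Anxa5), 4.88-fold (Car2), 3.78-fold (Grm3), 3.51-fold (Il33) and 2.85-fold (Ptgds). The plot of members by region shows each library.

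**Figure D1:**
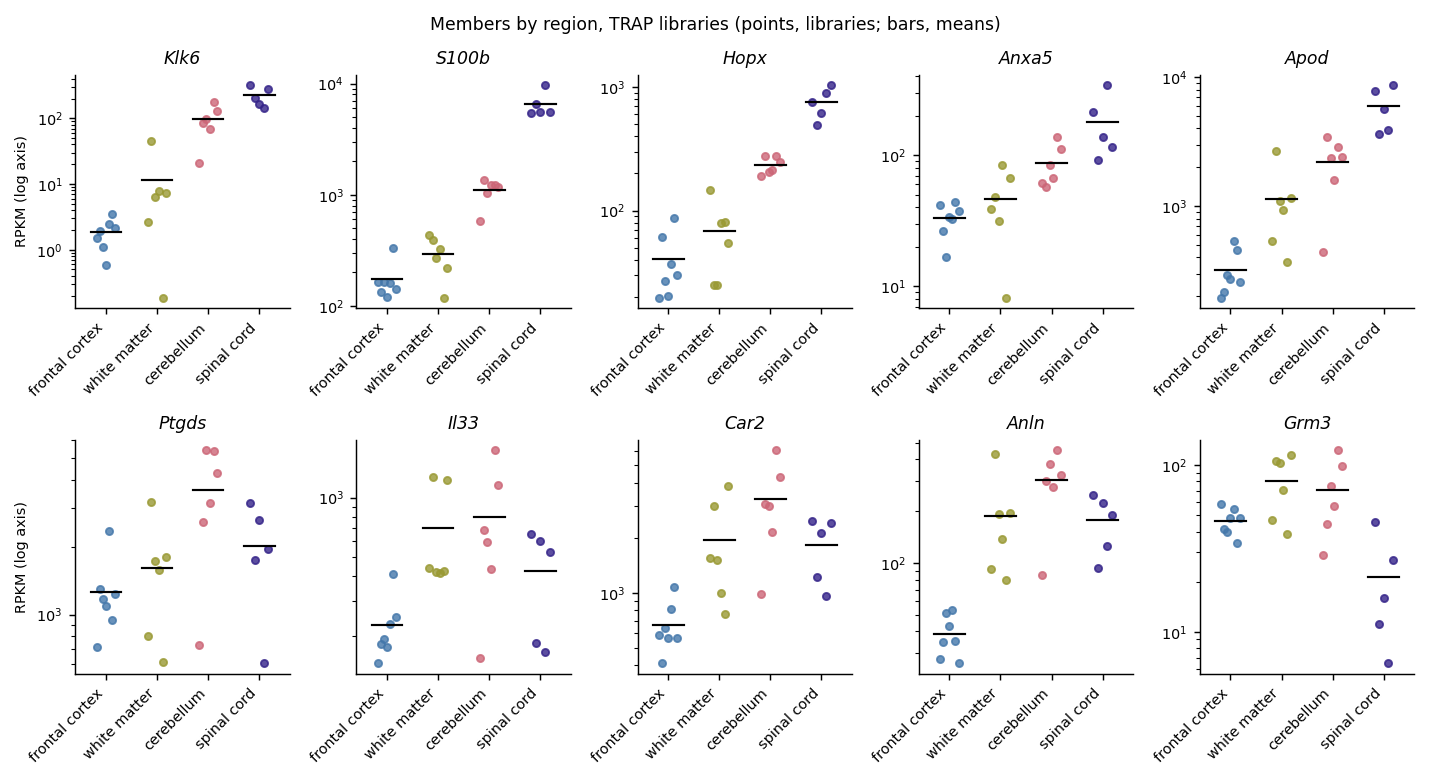
RPKM of the 10 markers in each TRAP library, 1 panel per gene, on a log axis; points are libraries and bars are group means. Klk6, Hopx, Anxa5, S100b and Apod climb from frontal cortex to spinal cord, while Grm3 has its lowest mean in spinal cord.

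Klk6 (chr7:43824499-43832030, plus strand), a secreted serine protease of the kallikrein family that cleaves myelin and matrix proteins, had the widest range. Frontal cortex libraries ran from 0.591 to 3.50 RPKM with a median of 1.92, which is 4 to 36 reads each. White matter libraries ran from 0.187 to 45.8 RPKM (median 6.94) and cerebellum from 20.9 to 177 (median 91.0). The 5 spinal cord libraries, given here and in the following in the order of replicates 3, 4, 5, 7 and 8, were at 320, 202, 166, 143 and 284 RPKM. Every spinal cord library was above every frontal cortex and white matter library, and overlapped with cerebellum only through cerebellum replicate 7. The log2 difference between spinal cord and frontal cortex was 6.59 ± 0.63 (SE, limma adjusted p = 3.9e-09), and that between cerebellum and frontal cortex 5.19 ± 0.60 (limma adjusted p = 1.35e-07). All such differences are on the log2(RPKM + 0.5) scale, which understates the change of a gene as low as Klk6 in cortex. Between spinal cord and cerebellum the log2 difference was 1.39 ± 0.65 (limma adjusted p = 0.123), and 1.5 with adjusted p = 0.0104 when recovered reads were tested with voom. White matter against frontal cortex gave 1.43 ± 0.60 (limma adjusted p = 0.163). White matter replicate 7 held 2 Klk6 reads, and without it that difference was 2.05 (adjusted p = 0.0136).

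Hopx (chr5:77086988-77115121, minus strand) encodes a small homeodomain protein that does not bind DNA itself. Its frontal cortex libraries lay at 19.8 to 86.3 RPKM (median 29.9), white matter at 24.8 to 146 (median 67.1) and cerebellum at 190 to 279 (median 232). Those of spinal cord lay at 755, 491, 617, 887 and 1036 RPKM. No spinal cord library overlapped with any library of the other 3 regions, and cerebellum did not overlap with white matter or cortex. Spinal cord against cortex gave a log2 difference of 4.37 ± 0.38 (limma adjusted p = 7.86e-10) and cerebellum against cortex one of 2.71 ± 0.36 (limma adjusted p = 1.41e-06). White matter and cortex differed by 0.68 ± 0.36 (limma adjusted p = 0.284), with overlapping libraries. The part of astrocytes and other cells in the Hopx level was not tested.

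S100b (chr10:76253853-76261159, plus strand), a small calcium-binding protein made by oligodendrocytes and astrocytes, had the highest mean of the 10 in spinal cord. That mean was 6550 RPKM against 5925 for Apod, while its median there, 5555 RPKM, was below that of Apod, 5667. The 5 libraries there stood at 5429, 6577, 5500, 9688 and 5555 RPKM. Cerebellum ran from 580 to 1345 RPKM (median 1202), white matter from 119 to 438 (median 296) and frontal cortex from 121 to 335 (median 161). Spinal cord libraries did not overlap with any other region. They exceeded cortex by a log2 difference of 5.28 ± 0.29 (limma adjusted p = 3.86e-14) and cerebellum by 2.59 ± 0.30 (limma adjusted p = 1.1e-06). Libraries of spinal cord held 1994 to 3408 RPKM summed over 12 astrocyte genes, those of cerebellum 632 to 2382, of white matter 2398 to 9588 and of frontal cortex 2155 to 4677. One of the 12, the intermediate filament gene Gfap, was also highest in spinal cord, with means of 350.5, 22.3, 115 and 36.2 RPKM in the same order of regions. The part of astrocyte RNA in the S100b level was not tested.

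Anxa5 (chr3:36448923-36475894, minus strand), a calcium-dependent protein that binds phosphatidylserine on membranes, had a shallower gradient. Frontal cortex libraries lay at 16.7 to 43.7 RPKM (median 33.6), white matter at 8.21 to 83.8 (median 43.5) and cerebellum at 57.3 to 137 (median 76.0). In spinal cord they were at 215, 91.5, 138, 343 and 117 RPKM. The spinal cord libraries were above every white matter and cortex library and overlapped with cerebellum. The log2 difference was 2.32 ± 0.41 for spinal cord against cortex (limma adjusted p = 5.03e-05) and 1.36 ± 0.39 for cerebellum against cortex (limma adjusted p = 0.011). For spinal cord against cerebellum it was 0.97 ± 0.42 (limma adjusted p = 0.101).

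Apod (chr16:31296192-31314808, minus strand), a lipocalin that carries lipids such as arachidonic acid, belongs by earlier grouping with Ptgds but was ordered by region like Klk6. Frontal cortex libraries held 195 to 537 RPKM (median 272), white matter 369 to 2686 (median 1016) and cerebellum 440 to 3414 (median 2379). The spinal cord libraries held 7801, 3625, 5667, 3873 and 8660 RPKM. All 5 were above all libraries of the other regions. The log2 difference was 4.22 ± 0.43 against cortex (limma adjusted p = 1.2e-08), 2.59 ± 0.44 against white matter (7.6e-05) and 1.59 ± 0.44 against cerebellum (0.01). White matter was above cortex by 1.63 ± 0.41 (limma adjusted p = 0.0174), and by 1.33 (adjusted p = 0.0737) without white matter replicate 3.

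Ptgds (chr2:25466709-25470046, minus strand), the lipocalin-type synthase of prostaglandin D2, was abundant everywhere. Frontal cortex ranged from 715 to 2362 RPKM (median 1172), white matter from 616 to 3191 (median 1656) and cerebellum from 729 to 5407 (median 3718). Spinal cord held 3163, 1748, 2659, 609 and 1972 RPKM. Libraries of all 4 regions overlapped. Only cerebellum against cortex passed the test among the 6 region pairs, at 1.34 ± 0.42 (limma adjusted p = 0.0185), and 4 of its 23 alternatives, with adjusted p from 0.000689 to 0.0643 over all of them, ended that call. Spinal cord against cortex gave 0.58 ± 0.44 (limma adjusted p = 0.296, 95% interval -0.28 to 1.45), and -0.31 after quantile normalization. Ptgds is also made by leptomeningeal fibroblasts and choroid plexus. The 8 choroid plexus genes summed to 75.1 to 350 RPKM in cerebellum and 1.04 to 21.7 RPKM in cortex, and the 12 leptomeningeal genes to 13.6 to 51.9 and 9.65 to 86.6 RPKM. Their part in the Ptgds result was not tested.

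Il33 (chr19:29925114-29960718, plus strand), a nuclear cytokine released by damaged cells, varied widely within regions. Frontal cortex libraries held 146 to 409 RPKM (median 193), white matter 413 to 1273 (median 433) and cerebellum 154 to 1731 (median 641). Spinal cord libraries held 655, 183, 600, 165 and 530 RPKM, so that replicates 4 and 7 lay within the cortex range and the other 3 above it. White matter was above cortex in every library, with a log2 difference of 1.5 ± 0.44 (limma adjusted p = 0.0409), a call that 9 of 23 alternatives ended (adjusted p from 0.00674 to 0.134). Cerebellum was above cortex by 1.52 ± 0.44 (limma adjusted p = 0.0107). Spinal cord against cortex gave 0.76 ± 0.46 (limma adjusted p = 0.186), and 1.46 (adjusted p = 0.0187) without spinal cord replicates 4 and 7.

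Car2 (chr3:14886273-14900770, plus strand), the cytosolic carbonic anhydrase of oligodendrocytes that interconverts CO2 and bicarbonate, followed a similar order. Levels were 413 to 1076 RPKM in frontal cortex (median 590), 766 to 3825 in white matter (median 1535) and 982 to 6010 in cerebellum (median 3019). Spinal cord was at 2467, 1216, 2120, 961 and 2409 RPKM. Replicate 7 fell inside the cortex range and the other 4 above it. The log2 difference was 2.14 ± 0.37 for cerebellum against cortex (limma adjusted p = 5.97e-05) and 1.42 ± 0.38 for spinal cord against cortex (limma adjusted p = 0.00387), or 0.58 (adjusted p = 0.16) for the latter after quantile normalization. White matter was above cortex by 1.37 ± 0.37 (limma adjusted p = 0.0252), and 6 of 23 alternatives ended that call (adjusted p from 0.00839 to 0.0895).

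Grm3 (chr5:9485541-9725170, minus strand), a metabotropic glutamate receptor that lowers cyclic AMP, was the only member called lower in spinal cord, and it was so against each of the other regions. Frontal cortex libraries held 34.1 to 58.9 RPKM (median 48.0), white matter 38.9 to 115 (median 87.3) and cerebellum 28.8 to 123 (median 66.3). In the spinal cord libraries it stood at 45.7, 11.1, 15.9, 6.51 and 27.2 RPKM, the lowest from 56 reads. Replicate 3 lay inside the cortex range and the other 4 below it. The log2 difference was -2.08 ± 0.40 against white matter (limma adjusted p = 0.000324), -1.86 ± 0.40 against cerebellum (0.0014) and -1.39 ± 0.39 against cortex (0.00515). Without replicates 4 and 7 the difference from cortex was -0.75 (limma adjusted p = 0.127). White matter, cerebellum and cortex did not differ from each other in the test. The sums of astrocyte genes given for S100b differed by region, and the part of astrocyte RNA in the Grm3 level was not tested.

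Anln (chr9:22332012-22389188, minus strand), anillin, is a scaffold that in oligodendrocytes helps assemble septin filaments along myelin. Frontal cortex libraries lay at 26.2 to 53.6 RPKM (median 35.1), white matter at 79.8 to 430 (median 166) and cerebellum at 84.4 to 450 (median 312). Spinal cord libraries were at 249, 92.9, 224, 126 and 190 RPKM. Every library of the other 3 regions was above every cortex library, and those 3 regions overlapped with each other. The log2 difference from cortex was 2.83 ± 0.36 in cerebellum (limma adjusted p = 7.79e-07), 2.13 ± 0.38 in spinal cord (5.46e-05) and 2.07 ± 0.36 in white matter (0.00131).

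Counted over the members, spinal cord against frontal cortex gave 8 calls, 7 higher and 1 lower, where 43.7% of all 13982 genes tested were called, 16.2% higher and 27.5% lower. The members' median log2 difference was 2.22 and that of all genes -0.33. In 6 members, Klk6, Hopx, Anxa5, Apod, S100b and Anln, the libraries of the 2 regions did not overlap, all 6 with spinal cord higher, against 18.4% of all genes not overlapping and 6.75% with spinal cord higher. Spinal cord against white matter gave 6 calls, 5 higher and 1 lower, against 27.7% of all genes, 8.97% higher and 18.7% lower. Spinal cord against cerebellum gave 4, 3 higher and 1 lower, against 22.6%, 7.57% higher and 15% lower. For cerebellum against frontal cortex 9 members were called, all higher, against 24.6% of all genes, 11.5% higher and 13.1% lower. Cerebellum against white matter gave 3 calls (Klk6, Hopx and S100b, all higher) against 9.76%, 2.93% higher and 6.83% lower, and gave 6 when cerebellum replicate 2, the library of its region with the least myelin RNA, was left out. White matter against frontal cortex gave 4 calls (Apod, Il33, Car2 and Anln, all higher) against 5.39%, 3.28% higher and 2.11% lower. That last count fell to 1 without white matter replicate 3 and to 2 without frontal cortex replicate 3, 5 or 8 or white matter replicate 8. All shares over all genes in this paragraph are from the fits with every library. The frontal cortex comparisons share their cortex libraries and are not independent of each other.

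**Figure D2:**
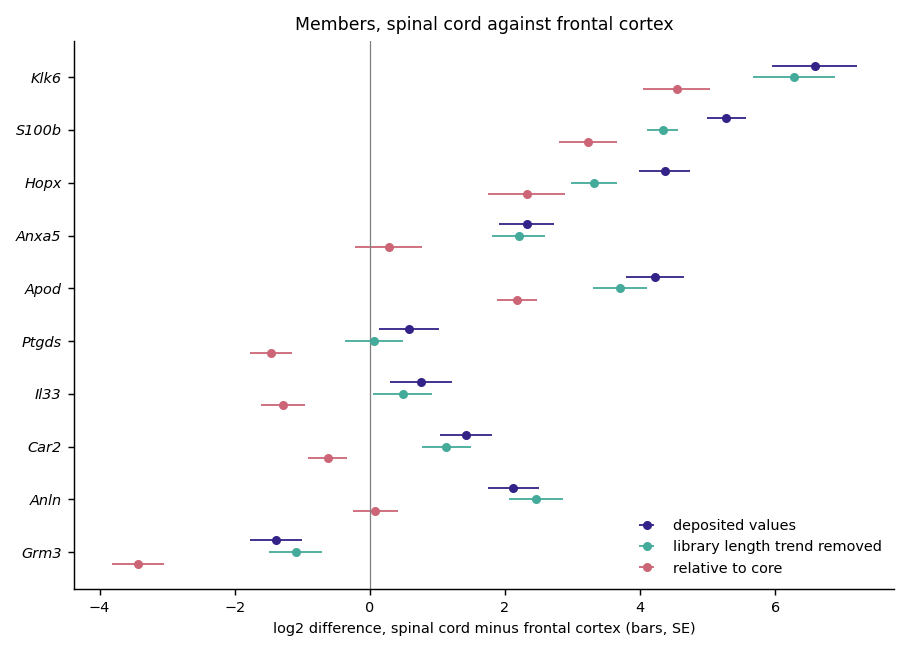
Log2 difference of each marker between spinal cord and frontal cortex TRAP libraries, with bars of 1 SE, on the deposited scale, with each library's trend on coding length removed, and relative to the mean of 23 core oligodendrocyte genes. Relative to the core genes, Ptgds, Il33 and Car2 move to the left of 0 and Anxa5 and Anln sit near it, while Klk6, S100b, Hopx and Apod stay to the right. The median of all genes on that relative scale was -2.37.

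Scaling and gene length both bear on these values. Quantile normalization moved the median of all genes in spinal cord against cortex from -0.33 to -0.04, and turned no called member around. Of all genes called, 32.4% were higher in spinal cord than in white matter (45.6% after quantile normalization) and 33.5% were higher in spinal cord than in cerebellum (50.4% after median-of-ratios scaling). The corresponding share for white matter against cortex was 60.9% (50.5% after quantile normalization). Spinal cord libraries also held relatively more RNA of short genes. The median log2 difference from cortex was 0.78 over 272 genes with a coding length under 300 bases and -0.66 over 2889 genes over 2500 bases. Hopx (219 bases) and S100b (276) are among the shortest, and Grm3 (2637) and Anln (3363) among the longest. With each library's trend on coding length removed, the difference between spinal cord and cortex was 3.31 ± 0.34 for Hopx, 4.33 ± 0.23 for S100b, -1.10 ± 0.39 for Grm3 (limma adjusted p = 0.0262) and 2.46 ± 0.40 for Anln, and the 8 calls stood. The difference of Hopx between spinal cord and cerebellum dropped to 0.93 and lost its call (limma adjusted p = 0.0569).

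The next question was whether a marker moved more or less than oligodendrocyte RNA as a whole, since the amount of that RNA differed between regions. Over 23 core genes of the lineage, such as Mbp, Cnp and Mog, frontal cortex had a mean log2 level of 7.06 ± 0.34 (SD, n = 7) and white matter of 8.62 ± 0.81 (n = 6). Cerebellum stood at 8.92 ± 0.97 (n = 6) and spinal cord at 9.11 ± 0.72 (n = 5). Of these 23 genes, 18 rose and none fell in spinal cord against cortex (median 2.15), with Mbp at 3.07 ± 0.28 and the lineage transcription factor Olig2 at 2.45 ± 0.38. The shares over all genes there were 16.2% higher and 27.5% lower. Subtracting each library's core mean gives a level relative to the core, shown in the plot of relative levels.

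**Figure D3:**
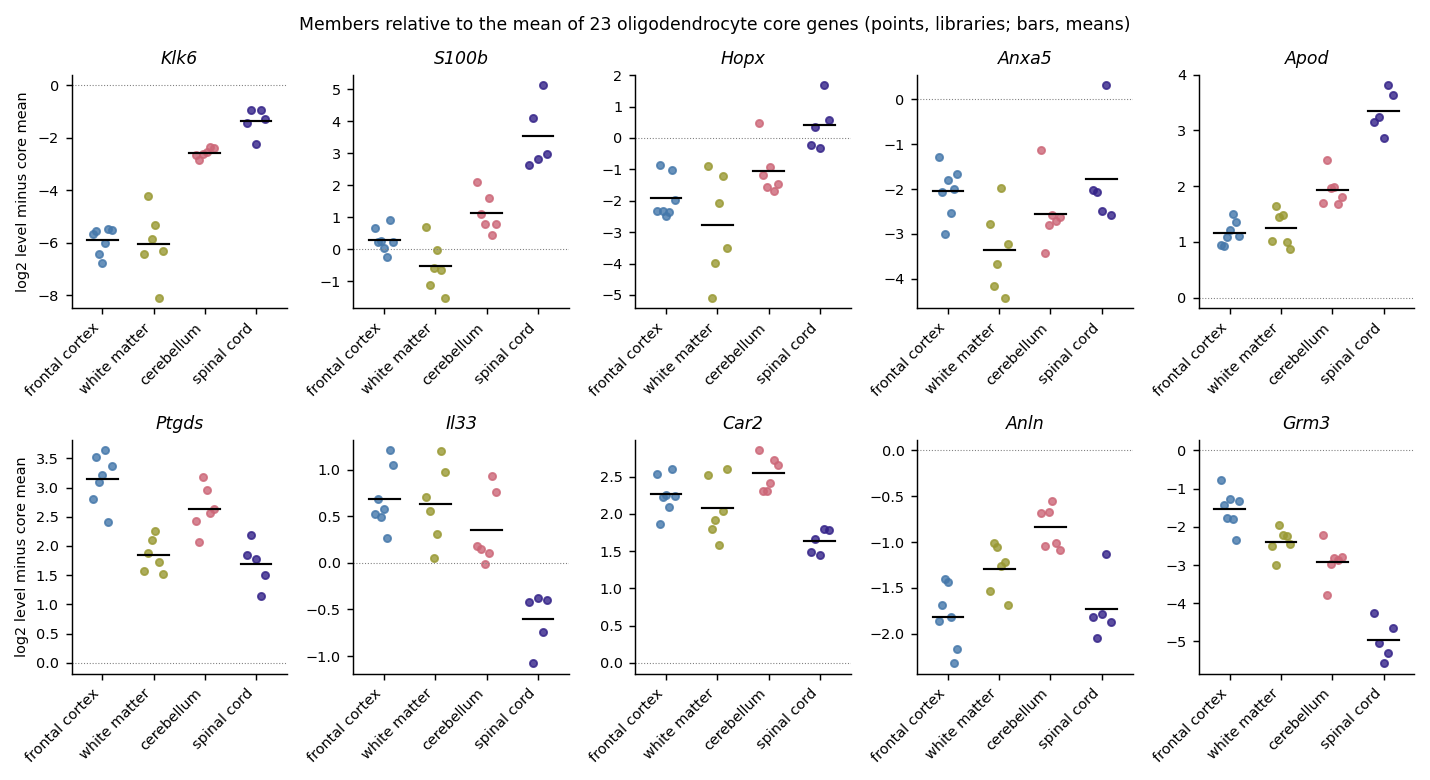
Log2 level of each marker minus the mean log2 level of 23 core oligodendrocyte genes in the same TRAP library, by region; points are libraries and bars are means. Klk6 has means of -5.91 and -6.04 in frontal cortex and white matter, below every cerebellum and spinal cord library, and Grm3 falls stepwise to a mean of -4.96 in spinal cord.

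On that relative scale Klk6 averaged -5.91 ± 0.51 in cortex and -6.04 ± 1.28 in white matter, against -2.57 ± 0.19 in cerebellum and -1.37 ± 0.53 in spinal cord (SD, same libraries). Cortex and white matter overlapped, and neither overlapped with cerebellum or spinal cord. S100b averaged 0.30, -0.53, 1.14 and 3.53 in the same order of regions, and Apod 1.16, 1.24, 1.93 and 3.34. Grm3 ran the other way, at -1.53, -2.39, -2.91 and -4.96, so that it was lowest relative to the core where the core was highest. Ptgds was at 3.15 in cortex and 1.69 in spinal cord.

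Relative to the core, 8 members were called in spinal cord against cortex, 4 higher and 4 lower. Because the reference genes are ones that are high in spinal cord, 81.3% of all genes were called on this scale, 80.5% lower and 0.787% higher. The members' median was 0.18 and that of all genes -2.37, so 0 is not the level of a typical gene here. The 4 higher members were Klk6 (4.54 ± 0.50), S100b (3.23 ± 0.43), Hopx (2.32 ± 0.57) and Apod (2.18 ± 0.30), with limma adjusted p from 1.06e-08 to 0.00054. The 4 lower were Grm3 (-3.43 ± 0.39), Ptgds (-1.46 ± 0.31), Il33 (-1.29 ± 0.33) and Car2 (-0.63 ± 0.29). Car2 had a limma adjusted p of 0.0496 and lost its call in 14 of 21 alternatives (adjusted p from 0.015 to 0.106). Anxa5 (0.28 ± 0.50) and Anln (0.08 ± 0.33) did not pass the test, with 95% intervals of -0.70 to 1.26 and -0.57 to 0.74.

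Against white matter, whose core level was nearer to that of spinal cord, 7 members were called relative to the core, against 18.7% of all genes, 1.82% higher and 16.9% lower. Klk6 (4.67), S100b (4.07), Hopx (3.20), Apod (2.10) and Anxa5 (1.60) were higher in spinal cord, and Grm3 (-2.57) and Il33 (-1.24) lower. Anxa5 dropped to 1.0 (limma adjusted p = 0.129) without spinal cord replicates 4 and 7. Against cerebellum, 3 were called, S100b at 2.40 ± 0.44, Apod at 1.41 ± 0.31 and Grm3 at -2.05 ± 0.40, where 6.73% of all genes were, 1.52% higher and 5.21% lower. Without spinal cord replicate 7 that count was 5. Cerebellum against cortex gave 4 calls relative to the core (79.4% of all genes, 0.472% higher and 79% lower), with Klk6 at 3.34 ± 0.47, Anln at 0.97 and Apod at 0.77 higher and Grm3 at -1.38 lower. Cerebellum against white matter gave 2, Klk6 at 3.47 ± 0.49 and S100b at 1.67, both higher (4.76% of all genes, 0.744% higher and 4.01% lower). White matter against cortex gave 3, all lower (70.6% of all genes, 0.114% higher and 70.5% lower): Anxa5 at -1.32, Ptgds at -1.31 and Grm3 at -0.86. Without white matter replicate 3 only 1 of these was called. All shares over all genes in this paragraph are from the fits with every library. The call of Grm3 was ended by 9 of 22 alternatives (adjusted p from 0.00926 to 0.0958), that of Anxa5 by 1 and that of Ptgds by none.

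The balance between the 2 marker groups was taken as the mean log2 level of Klk6, Hopx and Anxa5 minus that of Ptgds, Apod, Il33, Car2 and Grm3. It uses no core genes, since both groups come from the same library, but the 2 groups did not track the core level alike. With region means removed, Pearson's r with that level was 0.78 to 0.93 for the members of the second group. In the first group it was 0.81 for Klk6, 0.35 for Anxa5 and -0.09 for Hopx. The part of captured oligodendrocyte RNA in the balance was not tested. Cortex had a balance of -4.44 ± 0.44 (SD, n = 7) and white matter of -4.74 ± 0.65 (n = 6). Cerebellum stood at -2.97 ± 0.44 (n = 6) and spinal cord at -1.13 ± 0.79 (n = 5). Cortex (-4.95 to -3.88) and white matter (-5.31 to -3.81) covered the same range. Cerebellum (-3.26 to -2.09) and spinal cord (-1.71 to 0.21) did not overlap with them or with each other. After each region's mean was removed, Pearson's r over the 24 libraries was 0.59 between Klk6 and Anxa5, -0.18 between Klk6 and Hopx and 0.05 between Hopx and Anxa5, so the first group did not vary as a unit within regions. In single pairs, spinal cord also had the highest median, while the order of the other regions varied. The median ratio of Klk6 to Grm3 RPKM was 0.0444 in cortex and 0.0634 in white matter, and rose to 1.31 in cerebellum and 10.5 in spinal cord, where it ran from 7.004 to 22.02. S100b over Grm3 had medians of 2.95, 3.37, 16.97 and 345, and Apod over Ptgds 0.247, 0.637, 0.548 and 2.47.

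**Figure D4:**
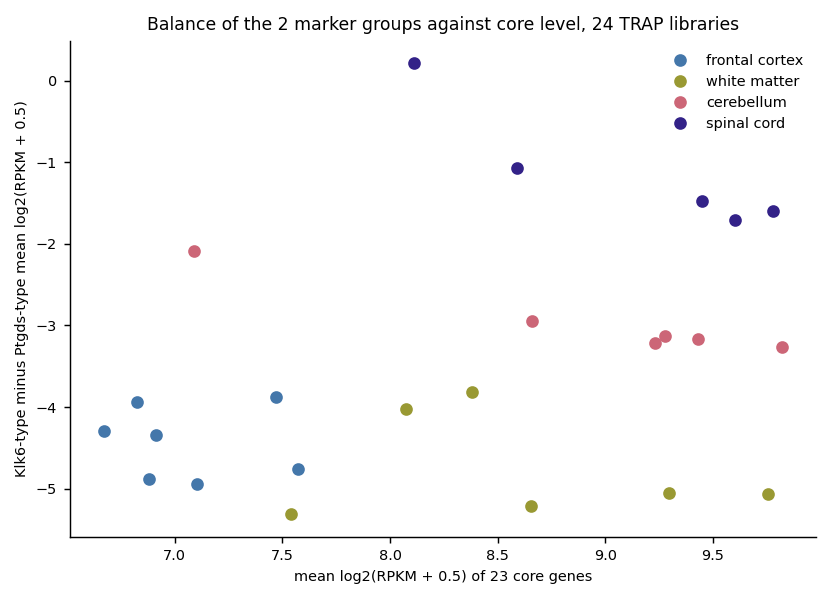
Balance of the Klk6, Hopx and Anxa5 group over the Ptgds, Apod, Il33, Car2 and Grm3 group (log2) against the mean log2 level of the core oligodendrocyte genes, 1 point per TRAP library. Balances of spinal cord (-1.71 to 0.21), cerebellum and white matter do not overlap. Their core levels overlap but differ in spread: spinal cord spans 8.11 to 9.78, cerebellum 7.09 to 9.82 and white matter 7.54 to 9.75. The library with the lowest core level has the highest balance of its region for spinal cord (0.21) and cerebellum (-2.09). For white matter it has the lowest (-5.31). The part of the core level in the balance was not tested.

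Within regions, members tracked the core genes to different degrees. After each region's mean was removed, Pearson's r with the core level over the 24 TRAP libraries was 0.93 for Apod and Car2, 0.92 for Il33, 0.91 for Anln, 0.90 for Ptgds, 0.81 for Klk6 and 0.78 for Grm3. It was 0.38 for S100b, 0.35 for Anxa5 and -0.09 for Hopx. The closest pairs of members on the same measure were Il33 with Car2 (0.92), Apod with Anln (0.90) and Ptgds with Anln (0.86). The lowest was Hopx with Anln (-0.27). These are descriptions over libraries that differ in depth and in how much oligodendrocyte RNA was captured. Klk6 with Apod gave 0.84, above its values with Anxa5 and Hopx.

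Genes whose level over the 24 libraries was most like a member's were sought among 11670 genes. Slc20a2, a phosphate transporter, was nearest to Klk6 (r = 0.961), with means of 24.1, 44.1, 87.5 and 114 RPKM in cortex, white matter, cerebellum and spinal cord. Mob3b followed at 0.937. Ebf3, a transcription factor, was nearest to both Hopx (0.925) and S100b (0.943), with means of 0.411, 2.34, 13.2 and 65.1 RPKM. The second names were Calb2 for Hopx (0.894) and Uqcrh for S100b (0.941). Apod was most like Rhou (0.976), a small GTPase, and Tmem88b (0.973). Genes of the myelin programme lay nearest to Il33 (Pllp, 0.943, and Gpr37, 0.940) and Car2 (Sept4, 0.962, and Ermn, 0.959). Anln lay nearest to Picalm (0.973) and Pip4k2a (0.971), Ptgds to Slc38a2 (0.906) and Ppfibp2 (0.904), and Anxa5 to Vwa5a (0.896) and Laptm4b (0.893). Grm3 had the weakest neighbours, Gabrr2 (0.871) and Arap2 (0.867). Gabrr2, a GABA receptor subunit, averaged 2.16, 9.85, 7.77 and 1.42 RPKM over the 4 regions.

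Other genes of mature oligodendrocyte states moved with the members in spinal cord against cortex: of 12 tested, 9 rose and 1 fell, with a median of 1.82. Over all genes tested, 16.2% rose and 27.5% fell. Sepp1, a selenium carrier, rose by 2.71 ± 0.41 from a mean of 62.1 to 458 RPKM, and Gsn, gelsolin, by 2.46 ± 0.34 from 23.2 to 127 RPKM. Qdpr, which regenerates tetrahydrobiopterin, rose by 2.22 ± 0.37. Jph4, the 1 that fell, lost its call under median-of-ratios scaling. In white matter against cortex 3 of the 12 rose (Ndrg1, Sepp1 and Trf) and none fell, where 3.28% of all genes rose and 2.11% fell.

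Relatives of the members did not all follow them, in a comparison where 16.2% of all genes tested rose and 27.5% fell. Of 8 other S100 genes tested, 4 rose in spinal cord against cortex, S100a13, S100a6 (3.60 ± 0.47), S100a16 (3.46 ± 0.37) and S100a1 (2.62 ± 0.39), and none fell, although 1 fell once the length trend was removed. Of 8 other annexins, none rose and Anxa11 fell (-2.92 ± 0.46), with 1 annexin higher after quantile normalization. The other lipocalins and prostaglandin D2 genes were mostly lower: 5 of 6 fell, among them Ptgs2, an inducible cyclooxygenase, at -4.01 ± 0.51 and Hpgds, the haematopoietic synthase of prostaglandin D2, at -2.86 ± 0.71. Metabotropic glutamate receptors other than Grm3 fell in 4 of 6 cases, with Grm2 at -3.58 ± 0.44, Grm8 at -3.45 ± 0.57 and Grm5 at -2.88 ± 0.39. Spinal cord means were 0.050 RPKM for Anxa11, 0.070 for Ptgs2, 0.163 for Grm2 and 0.805 for Grm8. Those of Hpgds and Grm5 were 2.30 and 5.71 RPKM. Anxa11 and Ptgs2 thus passed the filter on low values only through other regions, and could only come out lower in spinal cord. Carbonic anhydrases split, 3 of 10 higher and 5 lower, with Car14 at 2.72 ± 0.42 and Car11 at -2.72. Septins and other partners of anillin also split, 4 of 12 higher and 2 lower, with the small GTPase Rhoa at 1.64 ± 0.31 and Sept6 at -2.33. In the interleukin 33 pathway 1 of 6 rose, the signalling adaptor Traf6 (1.33 ± 0.33). Among kallikrein partners, 1 of 4 rose, the serine protease inhibitor Serpina3n (3.79 ± 0.61), from 2.71 to 35.4 RPKM.

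Genes of other cell types in spinal cord against cortex were mixed, beside 16.2% of all genes tested that rose and 27.5% that fell. Of 12 astrocyte genes 3 rose and 2 fell, with the intermediate filament gene Gfap at 3.50 ± 0.46 and the glutamate transporter gene Slc1a3 at -1.67. Of 12 leptomeningeal genes 5 fell and none rose (1 rose and none fell after quantile normalization). Among them, Lum and Slc47a1 were at 0 in all spinal cord libraries. The 12 leptomeningeal genes still summed to 16.99 to 96.09 RPKM in spinal cord libraries, against 9.65 to 86.6 RPKM in frontal cortex libraries. Of 10 precursor and newly formed oligodendrocyte genes 1 rose, Enpp6 (2.98), and 1 fell, Ptprz1 (-1.80). Of 4 Schwann cell genes tested 2 rose and 1 fell. Prx, Pmp2 and Dhh, which mark Schwann cells, were at 0 in every spinal cord library. Summed over the whole Schwann cell list, libraries of spinal cord held 299 to 583 RPKM and of frontal cortex 68.2 to 207. Those of cerebellum held 212 to 1292 RPKM and of white matter 100 to 635. Which cells this RNA came from was not tested.

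The second question was whether the markers differ in the frontal cortex of rTg4510+ mice. This table and the miR-142 table were normalized apart from the TRAP table, so levels are not compared across them. No member passed the limma threshold, where 7.42% of 13972 genes did, and voom on recovered reads also called none. At an unadjusted p under 0.05 there were 6 of the 10, Klk6, Anxa5, Ptgds, Apod, Grm3 and S100b, where 26.7% of all genes were. In 4 of these the 3 positive libraries did not overlap with the 3 negative ones and lay above them. That was so for 31.6% of all genes tested in either direction and for 23.3% with the positive libraries higher. Apod was at 231, 248 and 197 RPKM in the negative and 321, 611 and 694 RPKM in the positive libraries, all 3 higher, with a log2 difference of 1.2 ± 0.28 (limma adjusted p = 0.0525). Anxa5 was at 98.4, 76.3 and 70.6 against 113, 116 and 111 RPKM (0.48 ± 0.12, limma adjusted p = 0.0541). S100b was at 543, 615 and 570 against 718, 868 and 694 RPKM (0.40 ± 0.11, limma adjusted p = 0.0618).

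Ptgds in the same libraries was at 936, 818 and 378 RPKM without and 1221, 1424 and 1930 RPKM with the transgene, again without overlap (1.18 ± 0.36, limma adjusted p = 0.101). The choroid plexus genes summed to 29.4 to 2178 RPKM in the negative and 16.7 to 39.4 RPKM in the positive libraries, and leptomeningeal genes to 67.4 to 187 and 108 to 208 RPKM. Their part in the Ptgds values was not tested. Klk6 was at 2.44, 5.03 and 5.34 against 8.34, 13.1 and 5.32 RPKM, which overlapped (0.96 ± 0.37, limma adjusted p = 0.148). Grm3 was at 71.0, 93.2 and 68.2 against 69.6, 50.5 and 51.7 RPKM, which also overlapped (-0.43 ± 0.16, limma adjusted p = 0.137). Hopx (-0.17), Il33 (0.07), Car2 (0.06) and Anln (0.07) differed by less. Without positive replicate 1, 3 members were called: Apod at 1.54 (adjusted p = 0.000549), Grm3 at -0.58 (0.0319) and S100b at 0.43 (0.0386). Without negative replicate 1, Anxa5 was called at 0.62 (limma adjusted p = 0.0273). The number of all genes called also changed when 1 library was left out, as given at the end. No share over all genes stands beside these refitted counts.

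Genes around the members in this comparison gave 2 calls among 12 other mature-state genes, Sepp1 (0.84 ± 0.12) and Gsn (0.63 ± 0.10), both higher. The share called over all genes, in either direction, was 7.42%. None of the 23 core genes was called. Of 11 other S100 genes 3 rose (S100a13, S100a16 and S100a1), and of 8 annexins Anxa3 did (1.0). Astrocyte and microglial genes moved at the same time: 5 of 12 astrocyte genes rose, with Gfap at 2.67 ± 0.20 and the water channel gene Aqp4 at 0.96 ± 0.09, and 6 of 8 microglial genes rose, with the complement genes C1qb at 2.01 and C1qa at 1.92. The summed astrocyte level went from 4103 to 4265 RPKM to 5509 to 5836 RPKM, and the microglial from 294 to 337 RPKM to 659 to 849 RPKM. S100b is also made by astrocytes, and the part of other cells in the members' values was not tested. Over all genes, 77.7% of calls were higher in rTg4510+ mice, and 57.3% after median-of-ratios scaling.

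**Figure D5:**
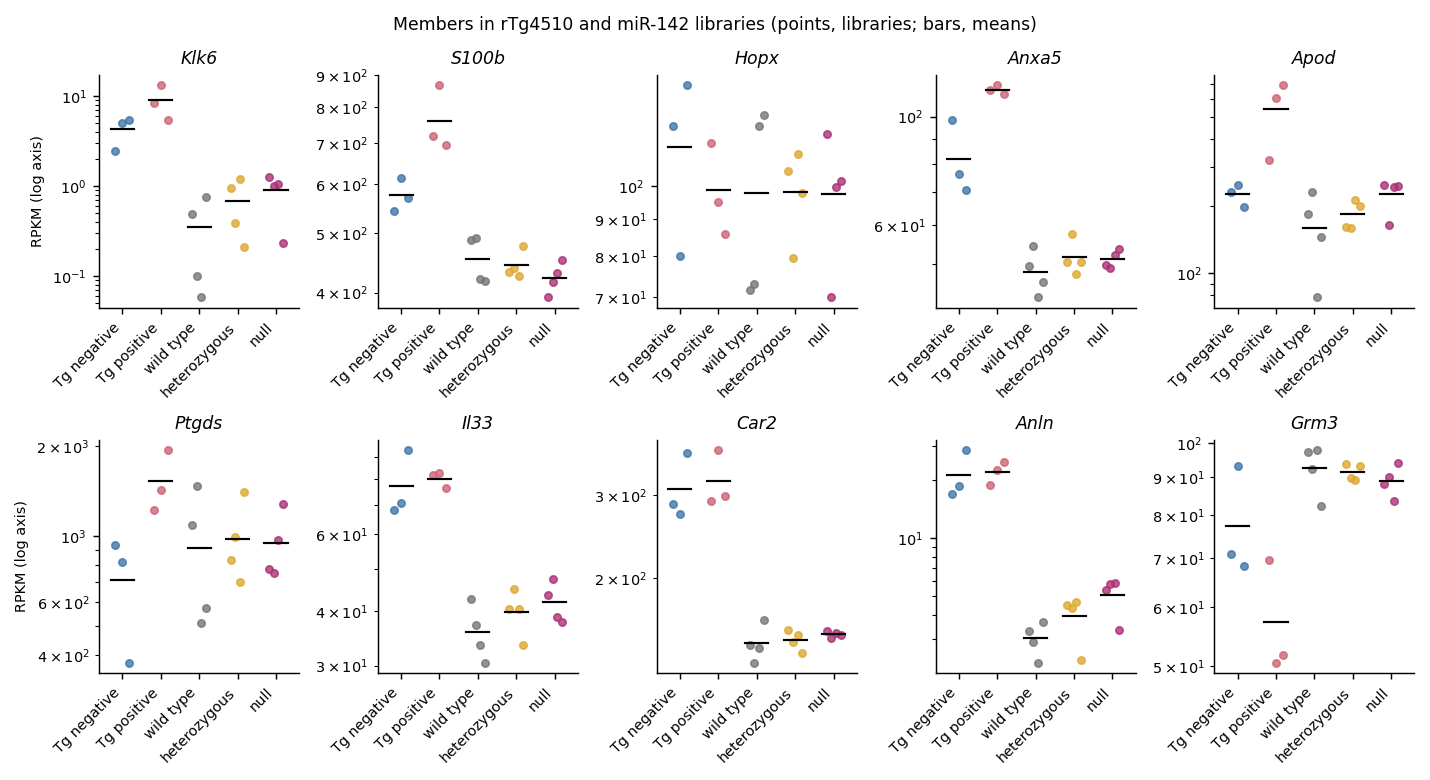
RPKM of the 10 markers in the bulk cortex libraries on log axes, by rTg4510 genotype (Tg negative and Tg positive) and by miR-142 genotype (null, heterozygous, wild type); points are libraries and bars are group means. Apod, Anxa5, Ptgds and S100b show 3 positive points above the 3 negative ones, while the miR-142 groups overlap in every panel.

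The third question was whether loss of miR-142 changes the markers in prefrontal cortex. No member was called in miR-142-null against wild type, where 0.468% of 13879 genes were, nor by voom. At an unadjusted p under 0.05 there was 1 of the 10, Anln, where 22.6% of all genes were. Anln was at 5.40, 5.80, 5.88 and 3.33 RPKM in the null, 4.54, 4.36, 4.66 and 2.34 RPKM in the heterozygous and 3.32, 2.92, 2.27 and 3.70 RPKM in the wild-type libraries. Null and wild type overlapped through null replicate 4. The log2 difference was 0.65 ± 0.21 between null and wild type (limma adjusted p = 0.105), with 0.31 for heterozygous against wild type and 0.33 for null against heterozygous. In neither comparison with heterozygotes was any member called, by limma or by voom, nor was any at an unadjusted p under 0.05, and over all genes limma called 0% in each. At that unadjusted threshold were 7.26% of all genes in heterozygous against wild type and 3.29% in null against heterozygous.

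Apod was at 248, 165, 244 and 247 RPKM in null and 185, 230, 78.1 and 145 RPKM in wild-type libraries, which overlapped (0.59 ± 0.29, limma adjusted p = 0.263). Klk6 was barely detected, at 0.0578 to 0.742 RPKM in wild type, which is 1 to 13 reads, and 0.233 to 1.26 RPKM in null libraries (0.72 ± 0.35, limma adjusted p = 0.242). Il33 differed by 0.22 ± 0.11 (limma adjusted p = 0.244), and the others by at most 0.15. S100b had means of 423 RPKM in null, 443 in heterozygous and 454 in wild type, and Car2 of 152, 148 and 145 RPKM. All 4 null titles carry the code number 14 and the wild-type titles 13 or 15, so what that number stands for and the genotype cannot be told apart between these groups. The titles also carry a letter, F or M, which the labels do not explain. Both letters occur in null and in wild type, in different proportions.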

How the data were processed

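The 42 libraries came in 3 tables of RPKM values. Per the submitters' processing notes, the authors used STAR, HTSeq and mm10 (versions and settings are not given in the sources used here) and deposited RPKM per gene, each table normalized by itself. Per the labels' protocols, TRAP libraries were NuGEN amplified with RiboZero treatment and read as 50 bp pairs, and bulk libraries were TruSeq Stranded with RiboZero Gold, 75 bp pairs, with RNA integrity numbers of 6.1 to 9.5. Amplification and the short-gene excess of some libraries can shift levels between regions.

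RPKM values were whole multiples of what 1 read is worth (tolerance 0.005 reads), which gave reads, depth and a length per gene. In each library 50.3% to 52.4% of the read numbers above 0 were odd, so the step was not a multiple of 2 reads. These lengths were multiples of 3 in 93.2% of genes and are called coding lengths. Tests used limma 3.58.1 in R 4.3.3 (trend and robust options) on log2(RPKM + 0.5), with genes kept that reached 0.5 RPKM in 5 libraries of the TRAP table, 3 of the rTg4510 table or 4 of the miR-142 table. All regions shared 1 fit, p-values were adjusted over all genes of a comparison by Benjamini-Hochberg, and the threshold was 0.05. The relative scale subtracts the mean log2 level of 23 core genes of each library. A mean ± SD is over libraries. The step was tested on simulated data. Intervals are 95%. Descriptive steps used Python 3.11.15 with numpy 2.4.6, pandas 2.3.3 and matplotlib 3.10.9.

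Named genes are the 10 members; of each other list up to 3 genes with the smallest adjusted p in spinal cord against frontal cortex and up to 2 in any other comparison described; and the 2 genes most correlated with each member (Pearson's r on log2 values over 24 TRAP libraries, genes with a mean of at least 2 RPKM). S100a13 and Jph4 were named after their values were seen. Some genes that the rule would name are not reported here. The members and lists were chosen with earlier results of these data known. Alternatives were other pseudocounts (0.1 and 1), no filter, quantile and median-of-ratios scaling, 5 core genes in place of 23, voom on recovered reads, a replicate block, fits of 2 regions only, and leaving out libraries. Removing the trend on coding length was added after the data were seen. Gene positions and UTRs are from GENCODE on GRCm38, the build of mm10. Promoter and microRNA sequences are from RefSeq. Protein sequences were not used here.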

Additional observations from a re-analysis of the deposited data

Results flagged for a closer look

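Over the 70 sets of 4 to 7 libraries of 1 member in 1 group, 9 held a library whose gap to the nearest other library was large against the whole range of the group. Chance gives such a gap in about 1 set in 20 where values are independent and normally spread, which was not tested here, and the members share libraries.

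White matter replicate 3 stood above its group in 3 members: Klk6 at 45.8 RPKM (the others 0.187 to 7.76), Apod at 2686 RPKM (369 to 1155) and Anln at 430 RPKM (79.8 to 195). It also had the highest core oligodendrocyte level of its group, 9.75 on the log2 scale. Frontal cortex replicate 7 stood above its group in Il33, at 409 RPKM (146 to 249), and in S100b, at 335 RPKM (121 to 163). Frontal cortex replicate 6 did so in Ptgds, at 2362 RPKM (715 to 1301). Spinal cord replicate 7 held 9688 RPKM of S100b (5429 to 6577 in the others) and had the lowest core level of its group, 8.11. In the miR-142 table, Apod was low in null replicate 2, at 165 RPKM (244 to 248), and Anln in heterozygous replicate 4, at 2.34 RPKM (4.36 to 4.66), which also had the lowest core level of the heterozygous libraries, 4.47. The title of heterozygous replicate 4 carries the letter F and the number 13. Those of the other heterozygous libraries carry M and 14, and the labels do not explain these marks.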

How the results depend on the processing

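Over 124 values of single members (those called, or larger than their standard error) and 13 to 23 alternatives each, 2431 of 2542 refitted values kept their direction and side of the threshold, 53 became called, 56 lost the call and 2 turned around. Those 2 were not called to begin with: Ptgds in spinal cord against cortex, -0.31 after quantile normalization, and Apod in heterozygous against wild type, which ran from -0.011 without wild type replicate 3 to 0.51 without replicate 2. The cause was not tested. Relative to the core, the members called in spinal cord against cerebellum went from 3 to 5 with the 5 most abundant core genes and to 5 with the length trend removed, and those in cerebellum against white matter from 2 to 5 with the 5 core genes.

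Leaving out 1 library at a time, members called ranged from 3 to 6 in cerebellum against white matter, from 1 to 6 in white matter against cortex and from 0 to 3 in rTg4510. Relative to the core they ranged from 3 to 5 in spinal cord against cerebellum and from 1 to 4 in white matter against cortex. In spinal cord against cortex the count was 8 throughout, and in the 3 miR-142 comparisons 0. No share over all genes stands beside these counts, and counts over all genes moved too, as given below.

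The labels do not say what a shared replicate number of TRAP libraries marks. Deviations from the group means of same-numbered libraries correlated at a median of 0.060, with 13 of 31 pairs above 0.1, against -0.022 and 24 of 184 for different numbers, and 7 of 24 libraries were closest to their own number. Same-numbered pairs were thus more often above 0.1, though not all were, which does not settle whether a number marks the same animal. The main fits did not use the numbers and treated the libraries as independent. With a replicate block, 4 values gained a call and none lost one: Ptgds in cerebellum against white matter (1.10, limma adjusted p = 0.0449) and, relative to the core, Hopx there (1.74, 0.0304), S100b in cerebellum against cortex (0.86, 0.0315) and S100b in white matter against cortex (-0.81, 0.0463).

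Counts over all genes were less stable. Spinal cord against white matter went from 3869 to 2133 and against cerebellum from 3162 to 1977, and white matter against cortex from 754 to 1378, with only the 2 regions in the fit. Relative to the core, spinal cord against cerebellum went from 941 to 150 in that fit, 439 with the block and 1931 without spinal cord replicates 4 and 7. rTg4510 ranged from 282 to 2406 against 1037, and miR-142-null from 0 to 651 against 65, when 1 library was left out. The last was 0 with a pseudocount of 1. Depth limits Klk6 most, at 4 to 36 reads in frontal cortex and 1 to 13 in wild-type prefrontal cortex.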
